A study of Homo sapiens with 4 samples.

Results

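CYR61, CTGF, NOV, WISP1, WISP2 and WISP3 are the 6 genes of the CCN family of matricellular proteins, named on the array by older symbols for CCN1, CCN2, CCN3, CCN4, CCN5 and CCN6 in that order. They were chosen by symbol, as the probes whose gene name equals one of these names, and were read by 6 probes, 1 per gene, of 34127 probes under 25992 gene names. Their RNA levels were measured in human proximal tubular cells (HPTCs), the epithelial cells that reabsorb filtered salt, glucose and protein in the kidney.

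CCN proteins are secreted into the matrix around the cell, where they bind integrins, heparan sulphate proteoglycans and growth factors and alter how cells adhere, migrate and respond to those factors. CYR61 and CTGF are among the best known target genes of YAP and TAZ, the coactivators that the Hippo pathway restrains, and CTGF is also induced by TGF-β through SMAD factors. In the kidney CTGF is best known from tubulointerstitial fibrosis. NOV is often described as opposing it, but the paper of this study also cites mice in which reduced NOV limited renal inflammation and fibrosis.

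All 4 arrays come from cells kept without serum and supplements for 24 h and then given IL-1β (10 ng/mL), an inflammatory cytokine, together with Empa (empagliflozin, 500 nM), an inhibitor of the glucose transporter SGLT2, for 24 h. Arrays H1 and H2 are replicates 1 and 2 of HK-2 by their labels, a human proximal tubular line immortalised with papillomavirus oncogenes, and arrays R1 and R2 are replicates 1 and 2 of RPTEC/TERT1, a line from the same tubule segment that was immortalised by telomerase. Both lines were grown at normal glucose, each is a single established line, and no group differs from another in treatment. Unstimulated cells and cells with IL-1β but no Empa were not analysed here, so the levels of 1 treatment arm are described and no effect of IL-1β or Empa on a CCN gene can be given.

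The promoters of CTGF and WISP3 were in the RefSeq promoter table (GRCh38.p14), which held 2 of the 6 genes. The 250 bases before each transcription start are shown because CTGF is a textbook target of TEAD, the DNA-binding partner of YAP and TAZ. Capitals mark GGAATG, the core that TEAD factors bind, on the printed strand, and its reverse complement CATTCC was searched as well. The CTGF sequence is chr6:131951373-131951622 on the minus strand and the WISP3 sequence is chr6:112053854-112054103 on the plus strand, both printed 5′ to 3′.
CTGF: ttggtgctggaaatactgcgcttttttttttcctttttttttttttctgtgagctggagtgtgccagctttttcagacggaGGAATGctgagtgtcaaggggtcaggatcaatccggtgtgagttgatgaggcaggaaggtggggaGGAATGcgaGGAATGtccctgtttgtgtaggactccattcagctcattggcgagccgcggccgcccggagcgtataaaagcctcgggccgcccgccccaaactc
WISP3: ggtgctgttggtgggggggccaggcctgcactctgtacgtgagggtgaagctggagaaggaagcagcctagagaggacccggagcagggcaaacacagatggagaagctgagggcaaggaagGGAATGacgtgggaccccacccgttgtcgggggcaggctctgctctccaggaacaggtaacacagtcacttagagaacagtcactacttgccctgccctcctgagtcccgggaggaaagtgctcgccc

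The CTGF promoter held 3 GGAATG cores, which begin 169, 104 and 95 bases before the start, and the WISP3 promoter held 1, which begins 128 bases before the start. Of 35116 RefSeq promoters of the same length, 11.9% held at least 1 core on either strand and 0.0826% held 3 or more. CAGAC, a SMAD-binding element (GTCTG on the other strand), was found once in the CTGF promoter, 177 bases before the start, and not in that of WISP3, against 38% of all promoters. TGANTCA, the AP-1 motif, which reads as itself on the other strand, was in neither promoter and in 6.57% of all. A match is a string of letters, not a bound site.

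The probes are 60 bases long, and their positions on GRCh37 are those of the array files. The CYR61 probe lies on chromosome 1 at 86048953 to 86049012 on the plus strand. The CTGF probe lies on chromosome 6 at 132270130 to 132270189 on the minus strand, and the WISP3 probe on chromosome 6 at 112389473 to 112389532 on the plus strand. The NOV probe (120436435 to 120436494) and the WISP1 probe (134239867 to 134239926) lie on the plus strand of chromosome 8, and the WISP2 probe lies on the plus strand of chromosome 20 at 43356347 to 43356406. Whether a probe lies in an exon or a UTR was not analysed here.

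A level is the log2 of the spot signal over the 75th percentile of the signals on its array, so that 0 is the brightness of that percentile. Each array held 43118 non-control spots, of which 59.2% to 64.9% were well above background, and the 75th percentile of the signal ran from 393 to 748. The median SD of a spot, from 650 probes spotted 10 times on each array, was 0.081 to 0.14 on the log2 scale. It measures the spread of spots within an array, not that between slides, scans or cultures. Across 17928 genes the arrays were most alike in pairs that cross the labels. The correlation was 0.980 between H1 and R2 and 0.976 between H2 and R1. It was 0.865 between the HK-2 arrays, 0.855 between the RPTEC/TERT1 arrays, 0.861 between H1 and R1 and 0.875 between H2 and R2. Which arrays carry a wrong label, if any do, cannot be told from the labels, so every CCN gene is given array by array under the label it bears. H1 and R1 share a scan date, as do H2 and R2.

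The labelled tissue was checked against its markers. Of 14 kidney epithelial markers 8 were well above background on all 4 arrays, while HNF4A and CUBN, which define the differentiated proximal tubule, were on none. The summed signal of the 14 markers was 67.9 and 65.7 times the 75th percentile on H1 and R2, and 12.4 and 16.2 times on H2 and R1. The sum is weighted to the brightest markers, such as CDH16. Of the 11 markers tested, LRP2, CDH6 and GGT1 went the other way and were higher on H2 and R1.

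CYR61, CTGF and NOV were well above background on all 4 arrays, WISP2 was on 2 of the 4, and WISP1 and WISP3 were on none. None of the 4 CCN genes that could be tested passed the test between the cell lines as labelled, and in none did the arrays of the lines separate. CTGF varied 4.00-fold from the lowest to the highest array and NOV 2.14-fold, while the range of CYR61 could not be measured because its spot was saturated on 2 arrays. The RNA comes from whole cultures, in which fewer cells expressing a gene and less RNA per cell cannot be told apart.

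**Figure D1:**
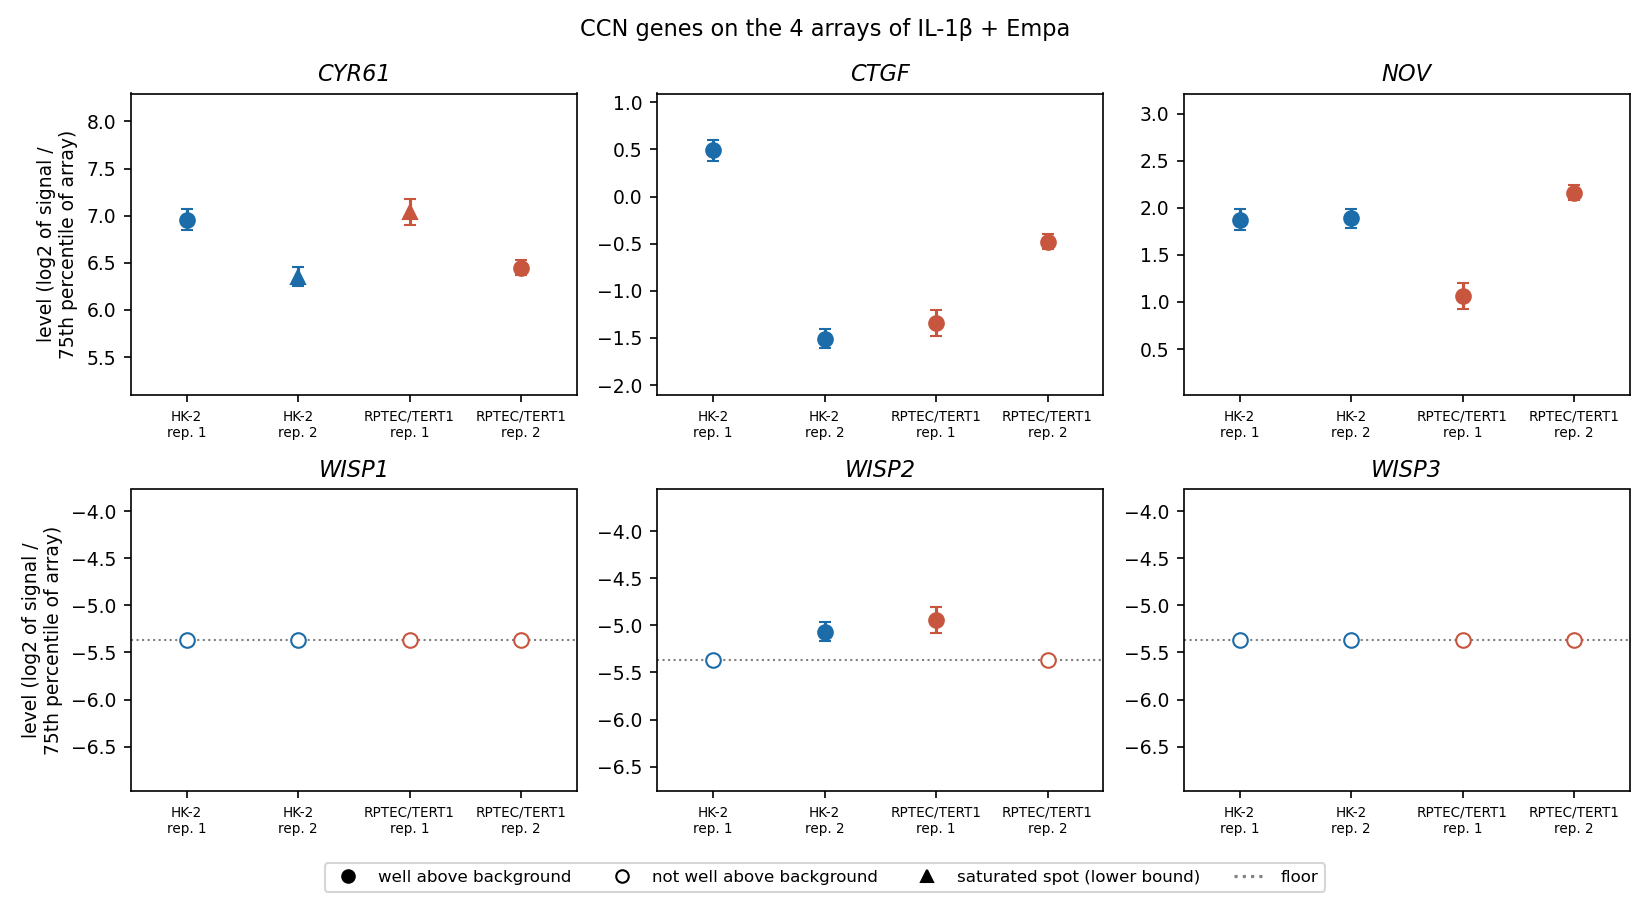
Levels of the 6 CCN genes on each array, as log2 of the signal over the 75th percentile of the array, with HK-2 (H1 and H2) in blue and RPTEC/TERT1 (R1 and R2) in red. Bars are the median spot SD of the array, triangles are saturated spots (lower bounds) and open circles lie on the floor (dotted line, -5.37). Each panel has its own vertical range of equal height, and CTGF is lowest on H2 (-1.51) and R1 (-1.34).

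CYR61, an adhesive protein that binds integrins and promotes migration and vessel growth, saturated the scanner on 1 array of each label. Its level was 6.96 on H1, 6.35 on H2, 7.04 on R1 and 6.45 on R2. The spot was saturated on H2, in 64 of 64 pixels, and on R1, in 58 of 62 pixels, so the values there are lower bounds. The remaining 2 arrays had no saturated pixel, with signals of 48934 (H1) and 37467 (R2). The level of H1 was 1.42-fold that of R2, an order that turned under normexp (5.73 on H1 and 6.37 on R2). Normexp also set the undetected WISP1 at -0.31 on H1 and -2.85 on R2, and a link to the CYR61 order was not tested. The labelled lines overlapped, at 6.65 ± 0.43 in HK-2 and 6.75 ± 0.42 in RPTEC/TERT1 (SD, n = 2 each). HK-2 minus RPTEC/TERT1 was -0.09 with a standard error of 0.51 and a 95% interval of -1.47 to 1.29 (limma, adjusted p = 1), and these values rest on a lower bound in 1 array of each line. The local background of the spot was marked as unlike the rest of its array on 3 of the 4 arrays.

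CTGF, which binds TGF-β and integrins and promotes matrix production, was brightest on H1. Its level was 0.49 on H1, -1.51 on H2, -1.34 on R1 and -0.48 on R2. In signal this was 141%, 35.2%, 39.5% and 71.8% of the 75th percentile in that order. H1 was high, R2 was between, and H2 and R1 were low and 0.16 apart, under the spot SD of that difference (0.17). H1 exceeded H2 by 4.00-fold, which is 13.3 times the spot SD of the difference, and 87.7% of genes differed less between H1 and H2. H1 exceeded R2 by 1.96-fold, a larger difference than 94.9% of genes showed between H1 and R2. The labelled lines overlapped, with -0.51 ± 1.41 in HK-2 and -0.91 ± 0.61 in RPTEC/TERT1 (SD, n = 2 each), and their difference of 0.40 had a standard error of 0.85 and an interval of -1.91 to 2.72 (limma, adjusted p = 1). Within replicate 1, HK-2 was above RPTEC/TERT1 by 1.83, and within replicate 2 it was below, at -1.03. Leaving out H1 turned the difference to -0.60.

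The range of CTGF over the arrays, 2.00 on the log2 scale, was wider than that of 86.4% of the 13778 genes well above background on all 4 arrays, whose median range was 0.97. Its 2 brightest arrays, H1 and R2, were also the brightest pair for 40.7% of those genes. They had the higher summed kidney epithelial markers too, and the part of that difference in the CTGF levels was not tested. The order of the 4 arrays was the same under normexp, quantile normalization and the deposited log2 values, with ranges of 1.28, 1.99 and 1.45. The genes whose centred levels lay nearest to those of CTGF were MRGPRF (root-mean-square difference 0.11), LOC728061 (0.11) and KRT83 (0.12), over 4 arrays.

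NOV, which binds integrins and Notch and has been described both as limiting and as promoting fibrosis, was lowest on R1 and alike on H1 and H2. Its level was 1.87 on H1, 1.89 on H2, 1.06 on R1 and 2.16 on R2. The HK-2 arrays lay 0.015 apart, between the low R1 and the high R2, which differed 2.14-fold or 6.85 times the spot SD of their difference. The labelled lines therefore overlapped, at 1.88 ± 0.011 in HK-2 and 1.61 ± 0.77 in RPTEC/TERT1 (SD, n = 2 each). Their difference of 0.27 had a standard error of 0.56 and an interval of -1.25 to 1.79 (limma, adjusted p = 1). HK-2 minus RPTEC/TERT1 was 0.81 within replicate 1 and -0.27 within replicate 2. Under normexp background correction the low arrays were H1 (0.94) and R1 (1.05), against 2.01 and 2.13 on the replicate 2 arrays. On H1 normexp also set WISP1, WISP2 and WISP3, undetected there, at -0.31, against -2.84 or lower on the other arrays. The part of this in the NOV value of H1 was not tested. In the main setting the difference between the labelled lines was -0.28 without R1.

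H2 and R1, which were nearly equal in CTGF, differed 1.77-fold in NOV, a larger difference than 88.9% of genes showed between them. The range of NOV, 1.10, exceeded that of 57.3% of the 13778 genes. The genes nearest to NOV in centred level were TFF1 (0.026) and the transcripts ENST00000417653 (0.027) and ENST00000440913 (0.028). They were among many, as 819 of the 13778 genes had a root-mean-square difference from NOV within 0.2, against 36 for CTGF. The likeness to NOV is therefore not particular to the genes named.

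WISP2, a CCN protein that lacks the C-terminal domain of the others, was well above background on H2, with a signal of 22.3, and on R1, with 15.8. Its signal was -0.045 on H1 and 0.43 on R2, where it was not well above background. The detected signals were 2.17 and 3.60 times the dimmest signal marked as well above background on their arrays, or 2.99% and 3.24% of the 75th percentile. WISP2 was thus detected on 1 array of each label, and the fitted difference of -0.06 with a standard error of 0.46 (limma, adjusted p = 1) rests on the floor value in the other array of each. Decorin (DCN) and lumican (LUM), proteoglycans of fibroblast matrix, were well above background on the same 2 arrays, at levels of -0.61 and 0.23 on H2 and -0.87 and -0.30 on R1. Of the 8 fibroblast and mesangial markers, 3 were well above background on each of these arrays, 1 on H1 and 0 on R2, with summed signals of 1.99, 1.53, 0.21 and 0.20 times the 75th percentile in that order. COL1A2, COL3A1, PDGFRA, PDGFRB and FAP, which define fibroblasts and mesangial cells, were not well above background on any array. The part of such cells in the WISP2 signal was not tested.

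WISP1, a WNT-induced member, and WISP3, a member linked to cartilage disease, gave signals around 0 on every array. The signal of WISP1 was -1.60, -1.66, -1.85 and 1.81 on H1, H2, R1 and R2. That of WISP3 was -1.32, 0.86, -0.86 and 0.14 in the same order. All were under the 95th percentile of the 153 negative control spots of their array, which ran from 2.31 to 9.12, so these RNAs were not detectable here and have no level to compare.

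The comparison of HK-2 with RPTEC/TERT1, the only contrast among these arrays, gave no call. limma (2-sided, Benjamini-Hochberg over all genes) called 0 of 16468 genes at an adjusted p of 0.05, 0% of those tested, and 0 of the 4 CCN genes tested, and 23 genes (0.14%) had an unadjusted p under 0.05, none of them a CCN gene. The labelled arrays did not overlap in 7.17% of genes tested, with HK-2 higher in 4.36% and RPTEC/TERT1 higher in 2.81%, and in 0 of the 4 CCN genes. The fit rests on 2 arrays per line, which resembled each other less than H1 resembled R2 or H2 resembled R1. Its p-values measure the spread between these arrays only.

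**Figure D2:**
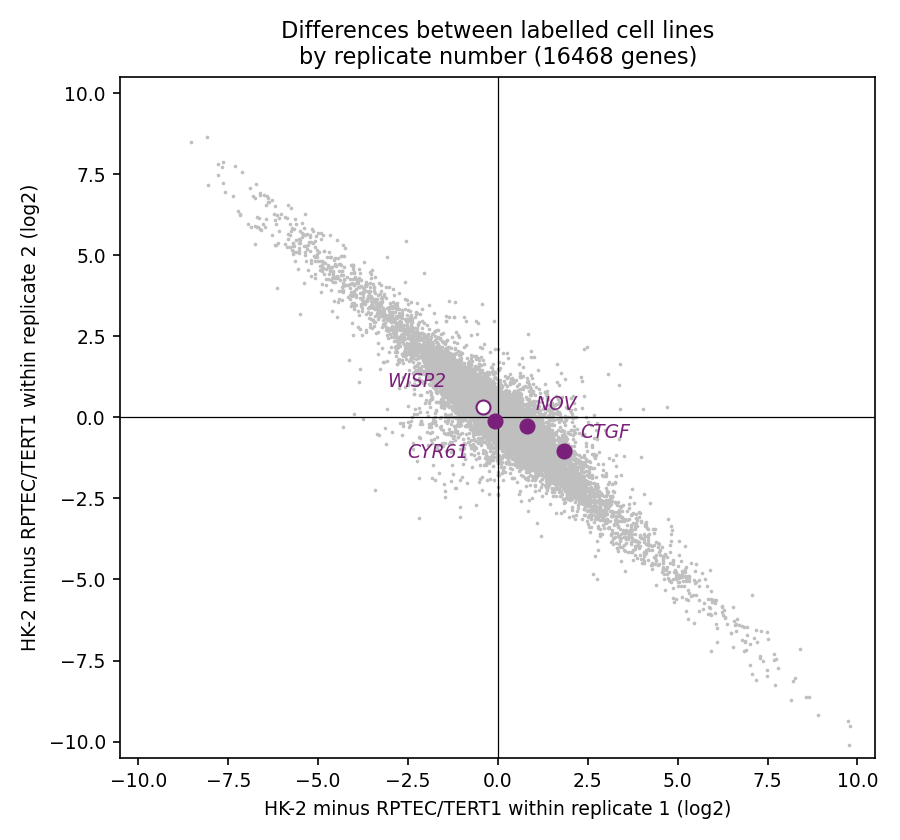
Difference between HK-2 and RPTEC/TERT1 within replicate 1 (horizontal, log2) against that within replicate 2 (vertical, log2) for the 16468 genes tested, in grey, with CYR61, CTGF and NOV filled and WISP2 open. CYR61 is plotted from saturated spots and its place is uncertain. CTGF lies at 1.83 and -1.03, in the lower right quadrant with NOV at 0.81 and -0.27.

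Within replicate 1 and within replicate 2 the difference between the lines had opposite signs in CTGF, NOV and WISP2. In CTGF it kept these signs under normexp, quantile normalization and the deposited log2 values. In NOV it was -0.12 and -0.13 under normexp, and in WISP2 the signs swapped under normexp (2.54 and -0.25) and with the deposited values (1.63 and -0.20). The replicate 1 values of both genes use H1, where these scalings set the undetected CCN genes higher than on the other arrays. For CYR61 the difference within each replicate sets a saturated spot against an unsaturated one, so its size cannot be read, nor its sign within replicate 2. Within replicate 1 the lower bound on R1 was 0.08 above H1, under the spot SD of that difference (0.18). Opposite signs held for 85.1% of all genes tested, which is the background for these counts. HK-2 exceeded RPTEC/TERT1 by over 1 within replicate 1 in 19.6% of genes, CTGF among them, and fell short by over 1 within replicate 2 in 17.8%, CTGF again among them.

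The other genes of the pathways were read from 5 lists with 79 entries, of which 71 could be tested. None was called by limma and none had an unadjusted p under 0.05. Of 20 other YAP/TAZ-TEAD target genes 19 were tested, and their median difference between the labelled lines was -0.01 against 0.02 over all genes tested. ANKRD1, a muscle and stress-response cofactor, was the list's only gene whose labelled arrays did not overlap (1 of 19, against 7.17% of all genes tested). It was at -2.63 and -2.52 in HK-2 and -2.74 and -3.49 in RPTEC/TERT1. Between replicates 1 and 2 the difference changed sign in 16 of the 19 (84.2%), against 85.1% of all genes tested. It was positive and then negative in 8, as in CTGF, and the reverse in 8.

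The targets with the widest ranges did not all take the array order of CTGF. NT5E, which makes adenosine outside the cell, was at 1.55, -0.97, -1.27 and 1.52 on H1, H2, R1 and R2. IGFBP3, which binds insulin-like growth factors, was at 1.51, -0.81, -0.30 and 1.35. Both were high on the arrays where CTGF was higher. TGFB2, a TGF-β ligand, ran the other way at -3.99, -0.37, -0.87 and -3.40, as did GADD45A, a stress-induced growth arrest gene, at 1.29, 2.73, 3.31 and 0.98.

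The upstream factors were present on all 4 arrays in 14 of 15 cases. YAP1, the coactivator, was at 0.27, -1.04, -0.61 and 0.11 in the same array order, and TEAD1, its DNA-binding partner, at 2.44, 1.76, 1.48 and 2.36. Both were higher on H1 and R2, where CTGF was higher and which were the brightest pair for 40.7% of genes. WWTR1 (TAZ) and TEAD3 were instead highest on R1 and lowest on R2. Between replicates 1 and 2 the difference between the lines was positive and then negative in 8 of the 15 genes and the reverse in 4. Over all 16468 genes tested these counts were 7677 and 6343. VGLL4, which competes with YAP for TEAD, was at 0.05, -1.12, -1.26 and 0.08. MOB1B, an activator of the LATS kinases, had the widest range of the list, 1.58. MOB1A, its close relative, was the list's only gene whose labelled arrays did not overlap (1 of 15, against 7.17% of all genes tested).

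**Figure D3:**
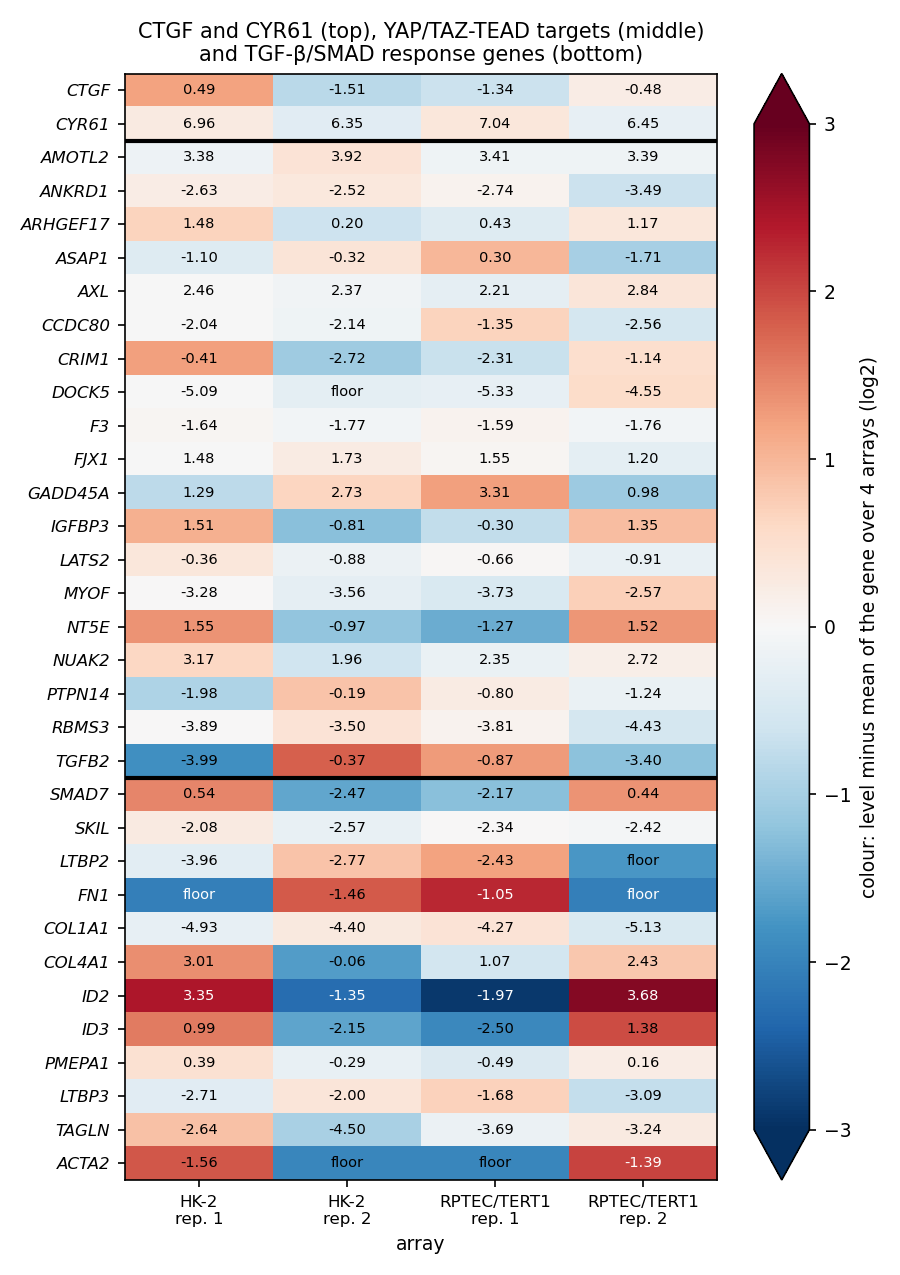
Levels of CTGF and CYR61 (top), the tested YAP/TAZ-TEAD targets (middle) and 12 of the tested TGF-β/SMAD response genes (bottom) on the 4 arrays. Numbers are levels (log2 of signal over the 75th percentile), "floor" marks -5.37, and the colour is the level minus the gene's mean over the arrays. CTGF runs from 0.49 to -1.51, and ID2, the widest of the lists shown, from 3.68 to -1.97.

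Of the 15 TGF-β/SMAD response genes 13 were tested, and in all 13 the difference between the labelled lines changed sign between replicates 1 and 2, against 85.1% of genes. ID2, an inhibitor of helix-loop-helix factors, was at 3.35, -1.35, -1.97 and 3.68 in the same array order, and ACTA2, smooth muscle actin, at -1.56 and -1.39 on H1 and R2 and at the floor on the other arrays. FN1, fibronectin, ran the other way, at -1.46 and -1.05 on H2 and R1 and at the floor elsewhere.

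Among the receptors and growth factors that CCN proteins bind, 16 of 18 were tested. ITGAV, the integrin chain that binds CYR61 and CTGF, was at 2.81, 1.97, 1.99 and 2.42. NOTCH1, a receptor for NOV, was the list's only gene whose labelled arrays did not overlap (1 of 16, against 7.17% of all genes tested). It was at -2.59 and -1.58 in HK-2 and -0.84 and -1.46 in RPTEC/TERT1, a difference of -0.93 (limma, adjusted p = 1). BMP4, a growth factor that CTGF binds, was at 1.27 and 1.23 on H1 and R2 and at the floor on the other arrays. VEGFA, which CTGF also binds, was at -1.13, 1.24, 0.63 and 0.02. ITGA6 was at -2.00, -4.55, -4.39 and -2.47. ITGA2B, a platelet integrin chain, was at -2.64, -4.67, the floor and -4.28.

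Of the other matricellular genes 3 had a wider range over the arrays than CTGF. FBLN5, an elastic fibre protein, was at 2.10 and 2.60 on H1 and R2 and at the floor on the others. SPARC, a collagen-binding protein, was at -4.72, 0.11, -0.25 and the floor, and THBS2, a thrombospondin, was at -1.72 and -1.74 on H2 and R1, the arrays that detected WISP2, and at the floor on the others. TNC, tenascin C, was at 1.48, -0.32, 0.66 and 0.18. Of the 11 genes of this list 8 were tested, and SMOC1 was the one whose labelled arrays did not overlap (1 of 8, against 7.17% of all genes tested).

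**Figure D4:**
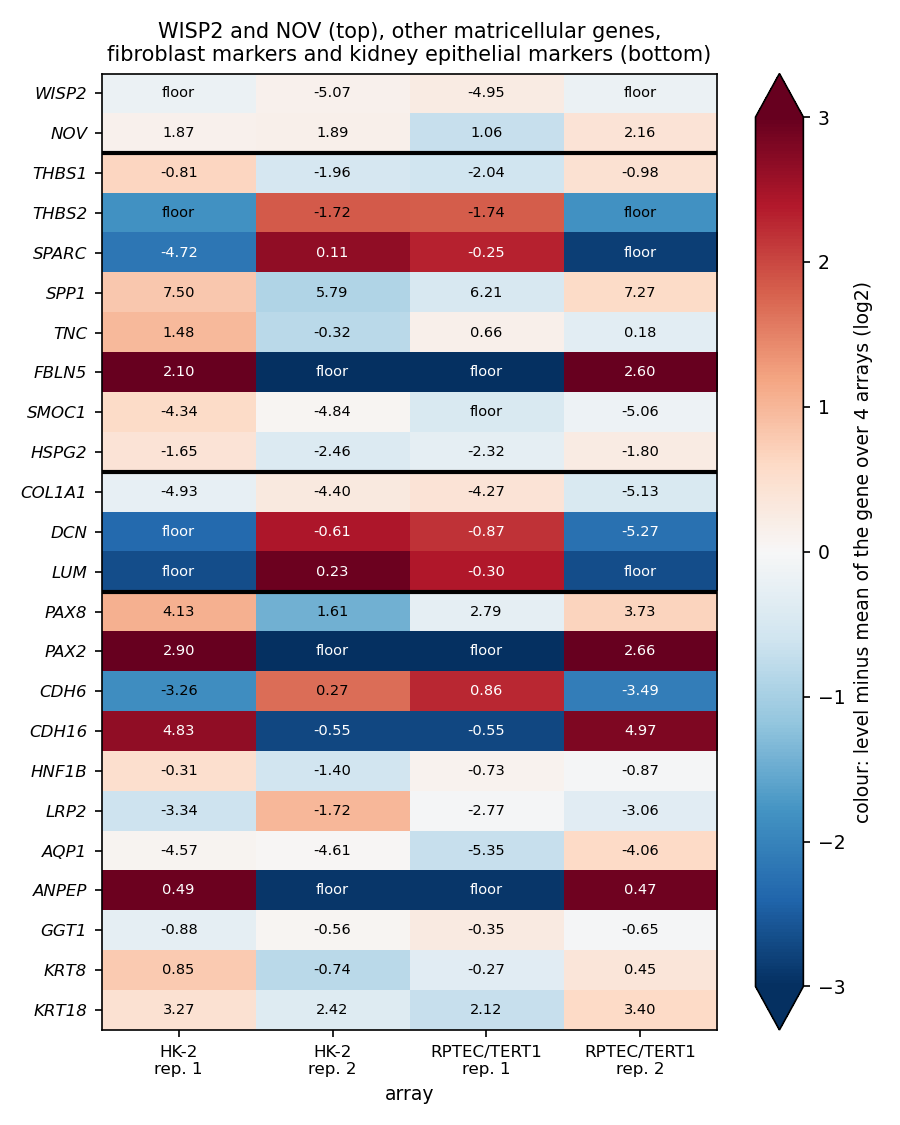
Levels of WISP2 and NOV (top), other matricellular genes, fibroblast markers and kidney epithelial markers on the 4 arrays, for the genes tested. Numbers are levels (log2 of signal over the 75th percentile), "floor" marks -5.37, and the colour is the level minus the gene's mean over the arrays. WISP2 leaves the floor on H2 (-5.07) and R1 (-4.95), where DCN and LUM are also raised.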

How the data were processed

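RNA of HPTCs that had IL-1β and Empa together was read on 1-colour Agilent arrays, H1 and H2 for HK-2 and R1 and R2 for RPTEC/TERT1. Per the methods these are biological duplicates. The methods and the labels name different RNA kits.

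The authors deposited spot intensities from Feature Extraction 9.5.3.1, background-subtracted per the file headers and not scaled between arrays. A second deposited table holds log2 values for these spots. How it was normalized is not given in the sources used, and it served as an alternative. The files hold 0 columns of other samples.

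Control spots and feature outliers were left out, saturated spots kept. Each signal was scaled to its array's 75th percentile, floored at 0.0242 of it (level -5.37, the highest over arrays of the lowest signal well above background) and taken to log2. A gene's level averaged those of its probes with values on all 4 arrays and well above background on at least 1, otherwise all its complete probes, which gave 25683 genes. limma 3.58.1 (lmFit and eBayes, R 4.3.3) compared the lines over 16468 genes that 2 or more arrays read well above background, and its intervals are 95% confidence intervals. Tables used Python 3.11.15 with pandas 2.3.3 and numpy 2.4.6, and figures matplotlib 3.10.9. The fit was also run on simulated arrays with known changes. Their noise was independent between arrays, without the likeness across labels seen here, so that run does not measure the power of the fit in these data.

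Named genes were the 6 CCN genes, for each one on all 4 arrays spanning over 1 on the log2 scale the 3 nearest genes by root-mean-square difference of centred levels, and the 4 widest genes of each list, of which 1 is not reported here. ITGAV, WWTR1, TEAD3 and the listed genes whose labelled arrays did not overlap were named after their values were seen. Markers came from lists of cell types. The members and lists were chosen with earlier results of these data known.

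Replicate numbers coincide with scan date. The deviations of same-numbered arrays from their labelled means had a correlation of -0.810 (2 pairs), and the reported fit has no block. Each array was on its own slide. The alternatives were normexp, quantile normalization, the deposited log2 values, other filters, the brightest probe, outliers kept, a replicate block, each array left out, and differences within each replicate. The number of arrays limits the precision.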

Additional observations from a re-analysis of the deposited data

Results flagged for a closer look

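CTGF moved in opposite directions between the replicates of the labelled lines. Replicate 2 minus replicate 1 was -2.00 on the log2 scale in HK-2 and 0.86 in RPTEC/TERT1, with 1 array per value. The difference between the lines was not tested.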

How the results depend on the processing

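No gene was called under any setting, and the count at an unadjusted p under 0.05 ran from 4 to 240 over 14 settings. The adjusted p of the CCN genes stayed between 0.999 and 1. With a replicate block limma called 0 genes (5 unadjusted, 23 without the block), 0 CCN genes and 0 listed genes, and the differences of the CCN genes were -0.09 for CYR61, 0.40 for CTGF, 0.27 for NOV and -0.06 for WISP2, as without it. A block of the crossed numbers, chosen after seeing the data, called 0 genes (183 unadjusted).

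Leaving out 1 array at a time gave HK-2 minus RPTEC/TERT1 of -0.40 to 0.21 for CYR61, -0.60 to 1.40 for CTGF, -0.28 to 0.81 for NOV and -0.27 to 0.15 for WISP2, so that all 4 changed sign. It gave mean levels of 6.59 to 6.82 for CYR61, -1.11 to -0.44 for CTGF and 1.61 to 1.97 for NOV. Fits with 1 array in a line assume that it varies like the other line. The difference became 0.10 for CYR61 under quantile normalization and -0.12 for NOV under normexp. For WISP2 it became 1.14 under normexp and 0.71 with the deposited log2 values, where undetected arrays carry no floor. WISP2 was then at -0.31 and -1.05 on H1, against -2.92 and -2.81 on R2, the other undetected array. The undetected WISP1 and WISP3 also read -0.31 on H1 under normexp and lower on every other array. Within replicates 1 and 2 the difference between the lines in the main setting was 1.83 and -1.03 for CTGF and -0.42 and 0.31 for WISP2. Causes were not tested beyond these. WISP1 and WISP3, at the floor, have no such values. Saturation limits every CYR61 value that uses H2 or R1, and signal near background limits WISP2.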

Other observations

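Leukocyte and endothelial markers were read beside the CCN genes. PTPRC, CD68, CD14 and ITGAX were well above background on all 4 arrays, and CD3E on R1 alone. The summed signal of the leukocyte list ran from 0.914 to 1.92 times the 75th percentile. VWF, KDR and TEK, which define endothelium, were well above background on none, and PECAM1 was on H1 alone, at -3.07. CDH5 was on all 4, at -2.15 and -2.36 in HK-2 and -3.02 and -2.51 in RPTEC/TERT1. The kidney cadherin CDH16 was at 4.83 and 4.97 on H1 and R2, the 2 arrays brightest in CTGF, and at -0.55 on both others. CDH6, a cadherin of the same marker list, ran the other way, at -3.26 and -3.49 on H1 and R2 and 0.27 and 0.86 on H2 and R1. Of the 11 kidney epithelial markers tested, 8 had a difference between the lines that was positive in replicate 1 and negative in replicate 2, as in CDH16. The reverse held in 3. Over all 16468 genes tested these counts were 7677 and 6343.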
